A study of Homo sapiens with 4 samples.

Results

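Keratins are the intermediate filament proteins of epithelial cells, and a filament forms from pairs of a type I and a type II keratin. The type II genes lie in a cluster on chromosome 12 and the type I genes in a cluster on chromosome 17, except KRT18, a type I gene at the end of the chromosome 12 cluster. Single-layered epithelia and most carcinomas use KRT8, KRT18, KRT19 and often KRT7, whereas KRT5 and KRT14 mark basal cells of stratified epithelia, KRT1 and KRT10 the differentiated epidermis, and a large further group the hair follicle. The keratin genes were taken as the protein-coding genes of the GENCODE annotation on hg19 whose symbol is KRT followed directly by a number, on these 2 chromosomes. This rule found 55 of 20098 protein-coding genes, 27 on chromosome 12 and 28 on chromosome 17.

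The study profiled H3K27ac, the acetylation of histone H3 at lysine 27 found at active promoters and enhancers, by ChIP-seq in OVCAR-3 and SKOV-3, both from ovarian cancer, in DU-145, from prostate cancer, and in COLO-205, from colon cancer. The labels name no treatment, and each of these established lines was grown in a medium of its own with serum. There was 1 library per line, so no spread between replicates can be given and no test was made. A keratin gene is called marked in a line where a deposited peak overlapped by at least 1 bp the stretch of 1 kb either side of the start of any of its transcripts.

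The peak lists were of unequal length, with 85576 peaks in COLO-205, 14001 in SKOV-3, 76093 in OVCAR-3 and 75468 in DU-145, and the tags recovered from them numbered between 22400000 and 36000000 per library. Counts are therefore also given with the 14001 strongest peaks of every list. The lines were checked against marker genes by promoter peaks. EPCAM and CDH1, which define epithelial cells, were marked in COLO-205, DU-145 and OVCAR-3 and in SKOV-3 neither was. Of the 5 epithelial markers, which include KRT8, KRT18 and KRT19, 3 were marked in OVCAR-3 with equal lists, 3 in SKOV-3, 5 in DU-145 and 5 in COLO-205. Of 4 mesenchymal markers 3 were marked in SKOV-3, 2 in OVCAR-3, 2 in DU-145 and 1 in COLO-205, and with equal lists the counts were 3, 0, 2 and 0. Among them VIM was marked in DU-145 and SKOV-3, FN1 in OVCAR-3 and SKOV-3, ZEB1 in every line and CDH2 in none. Of 7 colon markers 4 were marked in COLO-205, with CDX1, CDH17 and KRT20 unmarked, and with equal lists 1 was, as in OVCAR-3. The 4 are 57.1%, beside 51.3% of all genes marked in the COLO-205 list, so this count lies near the background. The prostate markers KLK2 and KLK3 were unmarked in DU-145 and marked in COLO-205. Of 7 ovarian carcinoma markers 6 were marked in OVCAR-3, 4 in DU-145, 3 in SKOV-3 and 3 in COLO-205. The counts were 5, 1, 3 and 1 with equal lists. In SKOV-3 the 3 are 42.9%, beside 31.7% of all genes marked in that list, and in DU-145 the 4 are 57.1%, beside 60.0%, so these counts lie near the background. No RNA was analysed here, so a peak or its absence is not a statement on expression.

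The genome sequence of 2 keratin promoters is shown as the 250 bases before the start of the canonical transcript, the transcript that Ensembl takes as representative, printed 5′ to 3′ on the strand of the gene. KRT78 is shown for its strong peak in OVCAR-3, a choice made after its value was seen (the peak reaches these bases, but its summit lies inside the gene), and KRT35 as the hair keratin with the highest −log10 q among those marked in 1 line only. The COLO-205 peak at KRT35, chr17:39636912-39637326, lies inside the gene and does not reach the bases shown. Capitals mark, on either strand, the TATA box TATAAA, the CCAAT box, the GC box with the letters GGGCGG, the AP-1 motif with the letters TGANTCA, an E-box with the letters CAGGTG and the core of ETS motifs with the letters CCGGAA, and neighbouring matches can overlap.
KRT78 upstream (GRCh37 chr12:53242779-53243028, minus strand): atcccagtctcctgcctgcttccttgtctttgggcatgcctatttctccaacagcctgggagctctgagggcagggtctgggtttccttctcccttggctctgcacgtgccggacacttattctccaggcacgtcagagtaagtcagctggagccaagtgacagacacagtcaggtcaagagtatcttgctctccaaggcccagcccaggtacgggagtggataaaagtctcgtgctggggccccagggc
KRT35 upstream (GRCh37 chr17:39637404-39637653, minus strand): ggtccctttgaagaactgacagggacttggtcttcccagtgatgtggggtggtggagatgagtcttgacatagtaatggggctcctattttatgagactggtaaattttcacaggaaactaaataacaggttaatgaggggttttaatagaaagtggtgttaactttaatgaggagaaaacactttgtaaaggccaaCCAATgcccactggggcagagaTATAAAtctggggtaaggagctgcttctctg

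A match is only a description of the letters. Among the 250-base stretches of 19819 protein-coding genes, 9.28% held TATAAA, 34.2% CCAAT, 59.2% GGGCGG, 4.7% TGANTCA, 17.4% CAGGTG and 19.5% CCGGAA. Among the 55 keratin genes the shares were 49.1% for TATAAA, 41.8% for CCAAT, 18.2% for GGGCGG, 9.09% for TGANTCA, 27.3% for CAGGTG and 3.64% for CCGGAA. Keratin promoters were also poorer in CpG, with a median observed-to-expected CpG ratio of 0.186 and 46.8% G and C, beside 0.751 and 63.2% over all genes. The ratio was highest at KRT18 (0.889), KRT7 (0.68) and KRT72 (0.665), of which KRT72 was unmarked in every line, and KRT80, marked in every line, had 0.154. Of the printed stretches, that of KRT35 had no CpG and held TATAAA, and that of KRT78 held none of the 6 motifs.

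Keratin promoters were marked less often than promoters at large in every line. COLO-205 had 20 marked keratin genes (36.4%) where 51.3% of all protein-coding genes were marked, and DU-145 had 10 (18.2%) where 60.0% were marked. OVCAR-3 had 11 (20.0%) beside 60.6% of all genes, and SKOV-3 had 7 (12.7%) beside 31.7%. When every list was limited to its 14001 strongest peaks, 7 keratin genes were marked in SKOV-3 (31.7% of all genes), 6 in COLO-205 (21.9%), 5 in OVCAR-3 (38.0%) and 6 in DU-145 (37.9%). In COLO-205, 12 of its 20 marked genes had no promoter peak with a −log10 q of at least 10, which left 8 (14.5%) beside 31.7% of all genes. The gap depended on the window in COLO-205, where 2 kb either side of a start gave 28 keratin genes (50.9%) beside 54.3% of all genes.

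**Figure D1:**
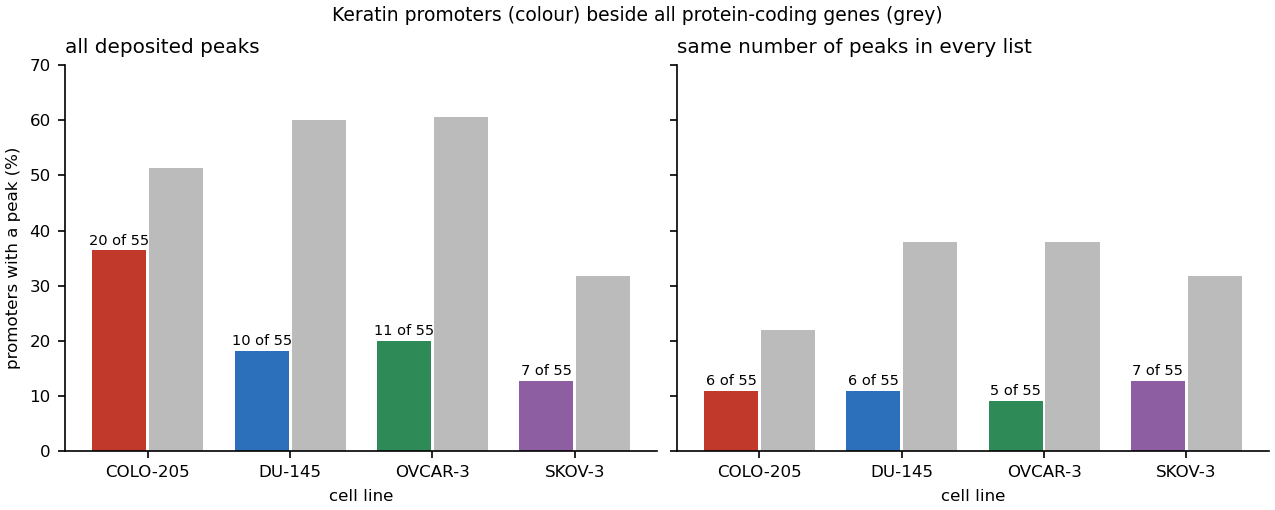
Share of promoters with an H3K27ac peak in each line, as percent, for the 55 keratin genes (coloured bars, with counts) and for all protein-coding genes (grey bars), with all deposited peaks on the left and with 14001 peaks per list on the right. The coloured bar is below the grey bar for each line in both panels, and COLO-205 stands out only on the left, with 20 of 55.

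The mark was present in all 4 lines at 6 promoters, those of KRT80, KRT7, KRT8, KRT18, KRT15 and KRT19. These are 10.9% of the keratin genes, beside 25.2% of all genes. With equal lists 3 of them remained (5.45%, beside 12.5% of all genes), KRT7, KRT8 and KRT18, since KRT80 was lost in COLO-205 and KRT15 and KRT19 in OVCAR-3. With a −log10 q of at least 10, 4 remained (7.27%, beside 15.3%), as SKOV-3 lost KRT7 and KRT19. When only starts of protein-coding transcripts were counted, SKOV-3 also lost KRT7, whose peak there had a −log10 q of 5.38. In no line was a peak found at 32 keratin genes (58.2%), beside 24.8% of all genes. KRT86 and KRT78 were marked in 3 lines, and KRT3, KRT4 and KRT23 in 2. Exactly 1 line had the mark at 12 keratin genes (21.8%), a larger share than the 15.4% of all genes. Of these, 10 were marked in COLO-205, which were KRT75, KRT73, KRT79, KRT27, KRT12, KRT33B, KRT34, KRT31, KRT35 and KRT14, while KRT25 was marked in DU-145 and KRT82 in OVCAR-3. Genes marked in COLO-205 only were 18.2% of the keratin genes and 6.18% of all genes. None of these 10 was marked with equal lists, where 1 keratin gene, KRT23, was marked in a single line (1.82%, beside 16.1% of all genes).

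**Figure D2:**
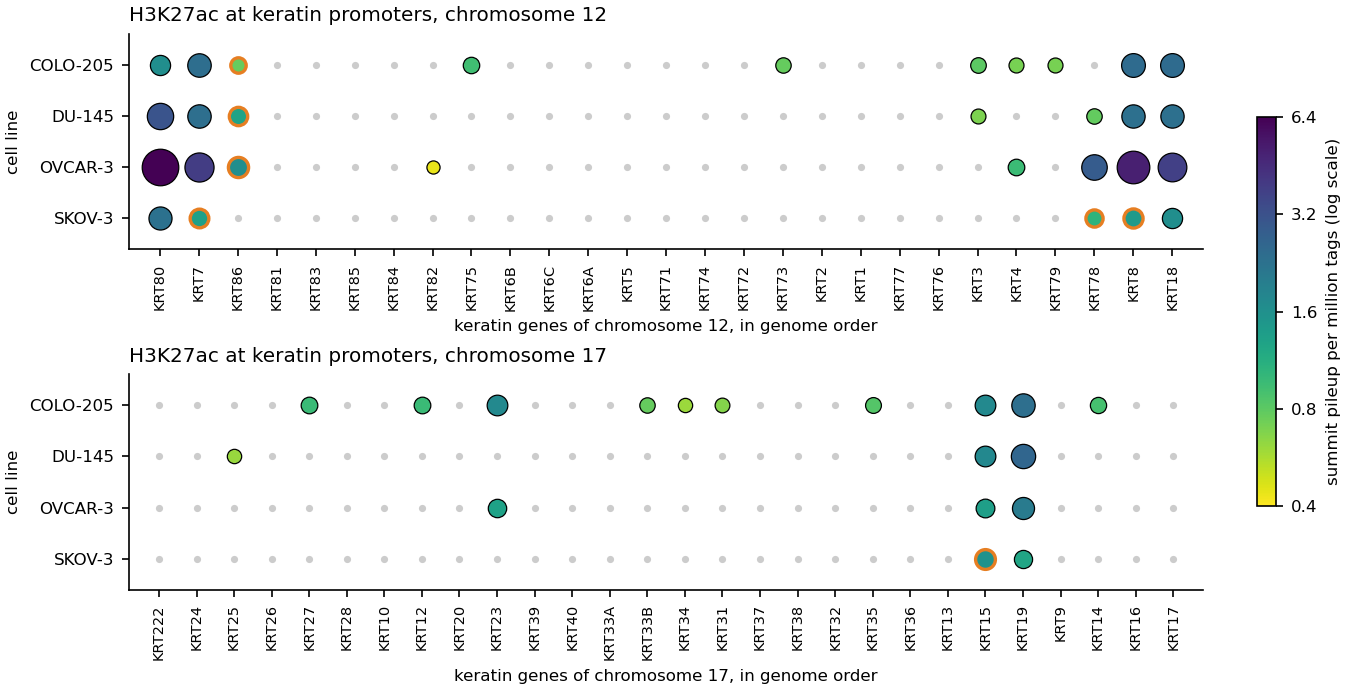
H3K27ac at all 55 keratin genes in genome order (columns) in the 4 lines (rows). Size and colour of a circle give the tag pileup at the summit of the strongest promoter peak per 1000000 tags (colour on a log scale), small grey dots are unmarked promoters, and orange rims mark genes whose peak lies only at an alternative start. KRT80 and KRT7 at the left end and KRT8 and KRT18 at the right end of the chromosome 12 cluster are filled in every line, and most of the middle is grey.

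Some of these peaks lay at alternative starts, and this changes the picture in SKOV-3. When only canonical starts were counted, a choice made after the data were seen, COLO-205 had 19 marked keratin genes, beside 45.3% of all genes, and DU-145 had 9, beside 56.9%. OVCAR-3 had 10, beside 57.5%, and SKOV-3 had 3, beside 29.5%. The 3 of SKOV-3 were KRT80, KRT18 and KRT19. KRT86, a hair keratin, had no peak at its canonical start in any line, and its mark came from an alternative start at the 3′ end of KRT7, where 1 peak was shared with KRT7 in COLO-205, DU-145 and OVCAR-3. A long KRT8 transcript begins near KRT18, so KRT8 and KRT18 shared 1 promoter peak in COLO-205, DU-145 and OVCAR-3 and 2 in SKOV-3.

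To compare the lines, the tag pileup at the summit of the strongest peak was recovered from the deposited fold enrichment and p-value and expressed per 1000000 tags of the library, which is called the scaled pileup here. Its 95% Poisson interval covers counting error only, since PCR copies are not independent molecules, and neither this nor the fold enrichment over the local background was scaled between libraries by the authors. The values below are for peaks at canonical starts.

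KRT80, a type II keratin of differentiated stratified epithelia, had in OVCAR-3 the highest scaled pileup of any keratin promoter in these lists. In COLO-205, however, it was below KRT18, KRT19 and KRT23. The scaled pileup was 1.64 in COLO-205 (interval 1.22 to 2.17), 3.11 in DU-145 (2.56 to 3.74), 6.4 in OVCAR-3 (5.58 to 7.31) and 2.28 in SKOV-3 (1.7 to 2.99). OVCAR-3 lay above the other lines beyond counting error and COLO-205 was lowest, although its interval overlapped that of SKOV-3. The fold enrichment was 3.84, 6.28, 15.2 and 5.53 in the same order, with −log10 q of 12.6, 48.6, 174 and 19.6. The local background at KRT80 was 12.0, 17, 13.5 and 8.4 tags, where the median over each list was between 4.19 and 4.95 tags, and its part in the pileup was not tested. DU-145 had a peak of 2599 bp over the KRT80 start, and COLO-205 one of 283 bp.

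KRT7, the type II keratin of many glandular and ductal epithelia, was marked at its canonical start in 3 lines. Its scaled pileup was 0.805 in COLO-205 (0.516 to 1.2), 2.36 in DU-145 (1.89 to 2.92) and 3.89 in OVCAR-3 (3.26 to 4.61), so that the intervals of these lines did not overlap, although by the percentile of the fold within each list DU-145 stood above OVCAR-3 (92.2 against 88.4). The COLO-205 peak was weak, with a fold of 2.86 and a −log10 q of 4.2, and SKOV-3 had no peak there. The strongest COLO-205 peak under the wide OVCAR-3 peak lay further inside the gene, with 1.44 (1.04 to 1.94), an interval that overlapped that of DU-145 but not that of OVCAR-3. At an internal KRT7 start every line had a peak, with a scaled pileup of 2.38 in COLO-205, 1.34 in SKOV-3 (0.904 to 1.91), 3.74 in OVCAR-3 and 2.0 in DU-145, and the SKOV-3 peak spanned chr12:52638283-52638491. Peaks covered 74.4% of the body of KRT7 in DU-145 and 60.1% in OVCAR-3, against 16.4% in COLO-205 and 1.33% in SKOV-3.

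KRT8 and KRT18 encode the filament pair of simple epithelia. KRT18 was marked at its canonical start in every line, with a scaled pileup of 2.45 in COLO-205 (1.92 to 3.08), 2.33 in DU-145 (1.86 to 2.89), 3.77 in OVCAR-3 (3.15 to 4.48) and 1.65 in SKOV-3 (1.16 to 2.28). OVCAR-3 was highest and its interval lay clear of the others, whereas COLO-205, DU-145 and SKOV-3 overlapped. The order turned when each fold was ranked within its own list, with KRT18 at the 91.9th percentile in COLO-205 and the 80.6th in OVCAR-3. KRT8 had 1.41 in COLO-205 (1.02 to 1.91), 1.83 in DU-145 (1.42 to 2.33) and 5.0 in OVCAR-3 (4.28 to 5.81), and no canonical peak in SKOV-3. The OVCAR-3 peak at KRT8 had the highest fold of any keratin promoter, 22 with a −log10 q of 167. It spanned chr12:53299488-53302156, so that only its edge reached the promoter window, and its summit lay at -2673 bp from the canonical start and at -689 bp from an alternative start. The summits of COLO-205 and DU-145 lay 432 and 314 bp inside the gene, so these are values of different peaks. The OVCAR-3 peak over the place of those peaks had 2.72 (2.19 to 3.33), which overlapped the interval of DU-145. Its summit lay 1408 bp inside the gene, and the COLO-205 peak with a summit near it, at 1450 bp, had 1.71 (1.27 to 2.25), an interval that also overlapped that of OVCAR-3. At the place of the upstream OVCAR-3 peak, COLO-205 had 2.01 (1.54 to 2.59) and DU-145 had 0.972 (0.677 to 1.35), both below OVCAR-3 beyond counting error. In DU-145 peaks covered 56.7% of the KRT8 body and 63.0% of the KRT18 body, the only line in which both passed 50%.

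KRT19, the type I keratin of simple and ductal epithelia, was marked at its canonical start in every line. The scaled pileup was 2.35 in COLO-205 (1.83 to 2.97), 2.58 in DU-145 (2.09 to 3.16), 2.05 in OVCAR-3 (1.6 to 2.59) and 1.25 in SKOV-3 (0.831 to 1.81). The first 3 intervals overlapped, and that of SKOV-3 lay below the interval of COLO-205 and of DU-145. KRT20, the type I keratin of intestinal epithelium, had no promoter peak in any line, COLO-205 included. KRT23, another type I keratin of simple epithelia, had a peak in COLO-205 with a scaled pileup of 1.74 (1.3 to 2.29) and in OVCAR-3 with 1.29 (0.935 to 1.73), both with the summit 1145 bp inside the gene from the canonical start.

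Among the basal keratins, KRT15 was marked in every line and KRT5 in none. The strongest KRT15 peak lay at an alternative start between KRT15 and KRT19, with a scaled pileup of 1.74 in COLO-205, 1.56 in SKOV-3, 1.35 in OVCAR-3 and 1.75 in DU-145, and the intervals of all 4 lines overlapped. At the canonical KRT15 start the value was 0.973 in COLO-205, 0.877 in OVCAR-3 and 0.861 in DU-145, with summits at -1194, -921 and -763 bp from that start, and SKOV-3 had no peak. KRT14, the partner of KRT5, had a peak in COLO-205 with a fold of 3.99 and a scaled pileup of 0.906.

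**Figure D3:**
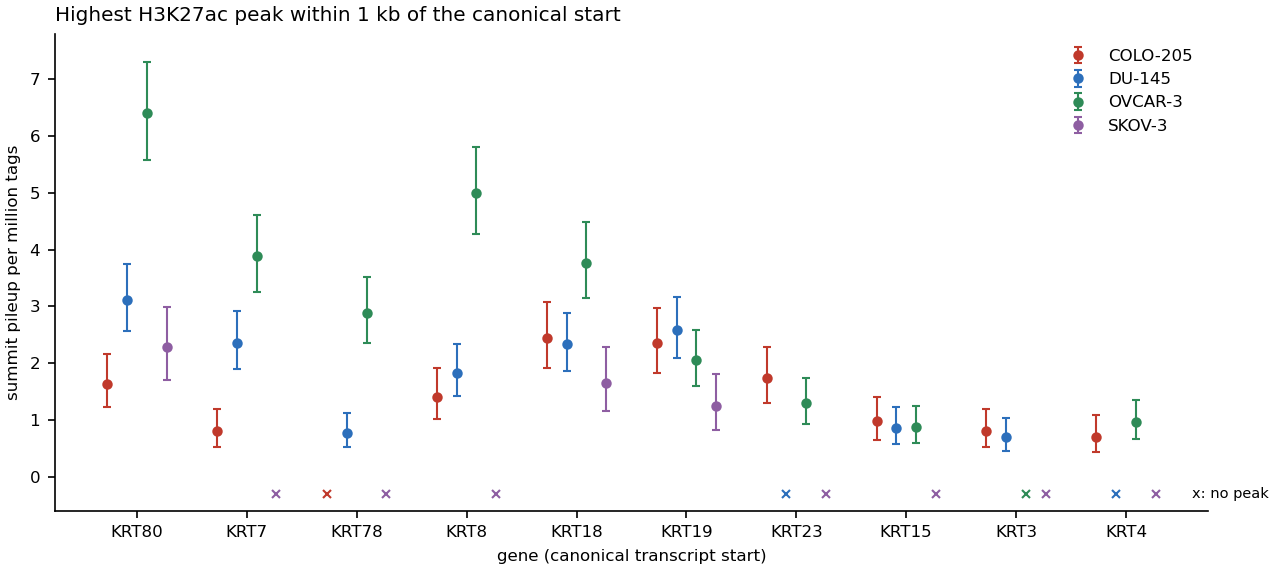
Tag pileup at the summit of the strongest H3K27ac peak within 1 kb of the canonical start, per 1000000 tags, for 10 keratin genes marked in at least 2 lines. Points are single libraries, bars are 95% Poisson intervals for counting error, and a cross means that no peak was called. OVCAR-3 stands above the other lines at KRT80, KRT7, KRT78, KRT8 and KRT18, and not at KRT19, KRT15 or KRT23, where COLO-205 has 1.74 and OVCAR-3 1.29. By percentile of the fold within each list, OVCAR-3 is below DU-145 at KRT7 and below COLO-205 at KRT18. At KRT8 its point is a peak with the summit at -2673 bp, and the OVCAR-3 peak over the place of the DU-145 peak had 2.72, with an interval that overlaps that of DU-145 and that of the nearest COLO-205 summit.

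Among the keratins of differentiated stratified epithelia, KRT78 stood out in OVCAR-3. Its peak there, chr12:53240996-53243157, had a fold of 20.0, a −log10 q of 95.9 and a scaled pileup of 2.89 (2.35 to 3.52), against 0.778 (0.517 to 1.12) in DU-145. The summits lay inside the gene, 1273 bp from the canonical start in OVCAR-3 and 900 bp in DU-145, so that of OVCAR-3 was outside the promoter window, and it lay 232 bp from an alternative start. In SKOV-3 a peak with 1.07 (0.686 to 1.59) lay only at an alternative start, with its summit at 1238 bp from the canonical one, and COLO-205 had no peak. KRT3 and KRT12, the pair of the corneal epithelium, were both marked in COLO-205, with a scaled pileup of 0.805 and 0.973, and KRT3 alone in DU-145, with 0.694. That DU-145 peak had its summit 1259 bp inside KRT3, outside the promoter window, and was lost with a window of 500 bp. KRT4, a keratin of oesophagus and other internal stratified epithelia, had 0.705 in COLO-205 and 0.965 in OVCAR-3, and its partner KRT13 was unmarked. KRT79 had 0.705 in COLO-205. Of 14 genes in this group 2 were marked in SKOV-3, 3 in OVCAR-3, 3 in DU-145 and 5 in COLO-205 (14.3%, 21.4%, 21.4% and 35.7%, each below the share of all genes in that line), and with equal lists 2, 2, 1 and 0. Unmarked in every line were KRT1, KRT2, KRT9, KRT10, KRT13, KRT24, KRT76 and KRT77.

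The 5 keratins induced in activated keratinocytes (KRT6A, KRT6B, KRT6C, KRT16 and KRT17) were unmarked in every line. The share of 50-base words within 1 kb of the start that also occur elsewhere in the genome was 39.1% for KRT6C, 35.5% for KRT6B, 22.3% for KRT6A, 21.3% for KRT16 and 19.2% for KRT17. The part of such repeats in the absence of peaks was not tested. The share was 40.3% for KRT81, 15.1% for KRT14 and 13.1% for KRT8. KRT5 and KRT1, also unmarked, had 0.205% and 0.0%.

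Hair follicle keratins with a peak were mostly those of COLO-205, the longest list. The shares marked there, 33.3% for the inner root sheath and companion layer and 29.4% for the hair shaft, were below the 51.3% of all genes, and with equal lists 0 genes of either group were marked in any line. Of the 9 keratins of the inner root sheath and companion layer, KRT27, KRT73 and KRT75 were marked in COLO-205 and KRT25 in DU-145. Of 17 hair shaft keratins, KRT31, KRT33B, KRT34 and KRT35 had canonical peaks in COLO-205 and KRT82 in OVCAR-3. The 10 keratin genes marked in COLO-205 only, KRT12, KRT14 and KRT79 among them, had peaks with a fold between 3.57 and 5.8, a −log10 q between 5.12 and 11.1 and a pileup of 18 to 29 tags, or a scaled pileup of 0.604 to 0.973. KRT35 had the highest −log10 q of these, 11.1, with 25 tags at its summit. By comparison the median fold and −log10 q over all canonical promoter peaks of COLO-205 were 4.36 and 12.5. Of these 10 promoters 7 held TATAAA, and their median CpG ratio was 0.0825, against 0.349 for the 6 promoters marked in all 4 lines. Over the whole set the median ratio was 0.161 for the 23 keratin genes marked in at least 1 line and 0.19 for the 32 marked in none, and 11 and 16 of them held TATAAA. KRT222, which does not belong to any of these groups, was unmarked.

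The strength of the peaks was set beside that of promoters at large. At canonical starts the median fold of marked keratin promoters was 8.88 in OVCAR-3 (7.3 over all marked promoters), 5.53 in SKOV-3 (5.21), 5.68 in DU-145 (4.61) and 4.21 in COLO-205 (4.36). The median width was 1173 bp in OVCAR-3 (638 bp over all), 454 bp in SKOV-3 (360 bp), 1555 bp in DU-145 (755 bp) and 326 bp in COLO-205 (411 bp). These medians rest on 10, 3, 9 and 19 keratin promoters and carry no test. Fold enrichment was higher in OVCAR-3 at promoters at large, so each fold was also ranked within its own list. KRT80 stood at the 32.5th percentile in COLO-205, the 82.1st in DU-145, the 91.3rd in OVCAR-3 and the 58.0th in SKOV-3. For KRT7 the percentile was 92.2 in DU-145 and 88.4 in OVCAR-3, so the order of these lines by pileup turned, as it did for KRT18. KRT8 and KRT78 kept OVCAR-3 on top, with percentiles of 98.6 and 97.5 for the peaks described above, whose summits lay outside the canonical window. At KRT8 this ranks peaks at different places. The OVCAR-3 peak over the place of the DU-145 peak had a fold of 10.2, below the 11.6 of KRT18 at the 80.6th percentile. The COLO-205 peak with the nearest summit had 6.15, above the 5.8 of KRT35 at the 80.9th percentile. At that place COLO-205 therefore ranked above OVCAR-3. KRT19 stood at 79.7 in COLO-205, 6.8 in SKOV-3, 32.1 in OVCAR-3 and 74.3 in DU-145.

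Of 6 textbook filament pairs, KRT8 with KRT18 had both promoters marked in every line, and in SKOV-3 this rested on KRT8 starts other than the canonical one. KRT3 with KRT12 had both marked in COLO-205. KRT5 with KRT14, KRT4 with KRT13, KRT1 with KRT10 and KRT6A with KRT16 had 1 member or neither in each line.

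The cluster on chromosome 12 held more peaks per Mb than its chromosome in every line, and that on chromosome 17 held fewer than its own, peak-rich chromosome. From KRT80 to KRT18 (chr12:52562780-53346690) lay 67 peaks in COLO-205, 20 in SKOV-3, 108 in OVCAR-3 and 85 in DU-145. The density was 2.8 times that of the whole chromosome in COLO-205, 4.05 times in SKOV-3, 5.42 times in OVCAR-3 and 3.99 times in DU-145. From KRT222 to KRT17 (chr17:38810917-39781094) lay 52 peaks in COLO-205, 9 in SKOV-3, 17 in OVCAR-3 and 22 in DU-145. This was 0.753, 0.821, 0.271 and 0.38 times the density of chromosome 17 in the same order. Against the whole genome the chromosome 17 span was denser in COLO-205 (1.91 times) and SKOV-3 (2.02 times) and less dense in OVCAR-3 (0.699 times) and DU-145 (0.913 times). The median fold of the peaks inside both spans was between 4.11 and 5.27, beside 4.31 to 5.44 over the 2 chromosomes. The median local background of the span peaks was 7.48 tags on chromosome 12 and 7.35 on chromosome 17 in DU-145, beside 4.95 over its list, and 5.59 and 6.91 in OVCAR-3, beside 4.19. It was 5.44 and 5.16 in COLO-205, beside 4.29, and in SKOV-3 it was below that of the list, with 4.2 and 4.51 beside 4.95. Its part in the counts was not tested.

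**Figure D4:**
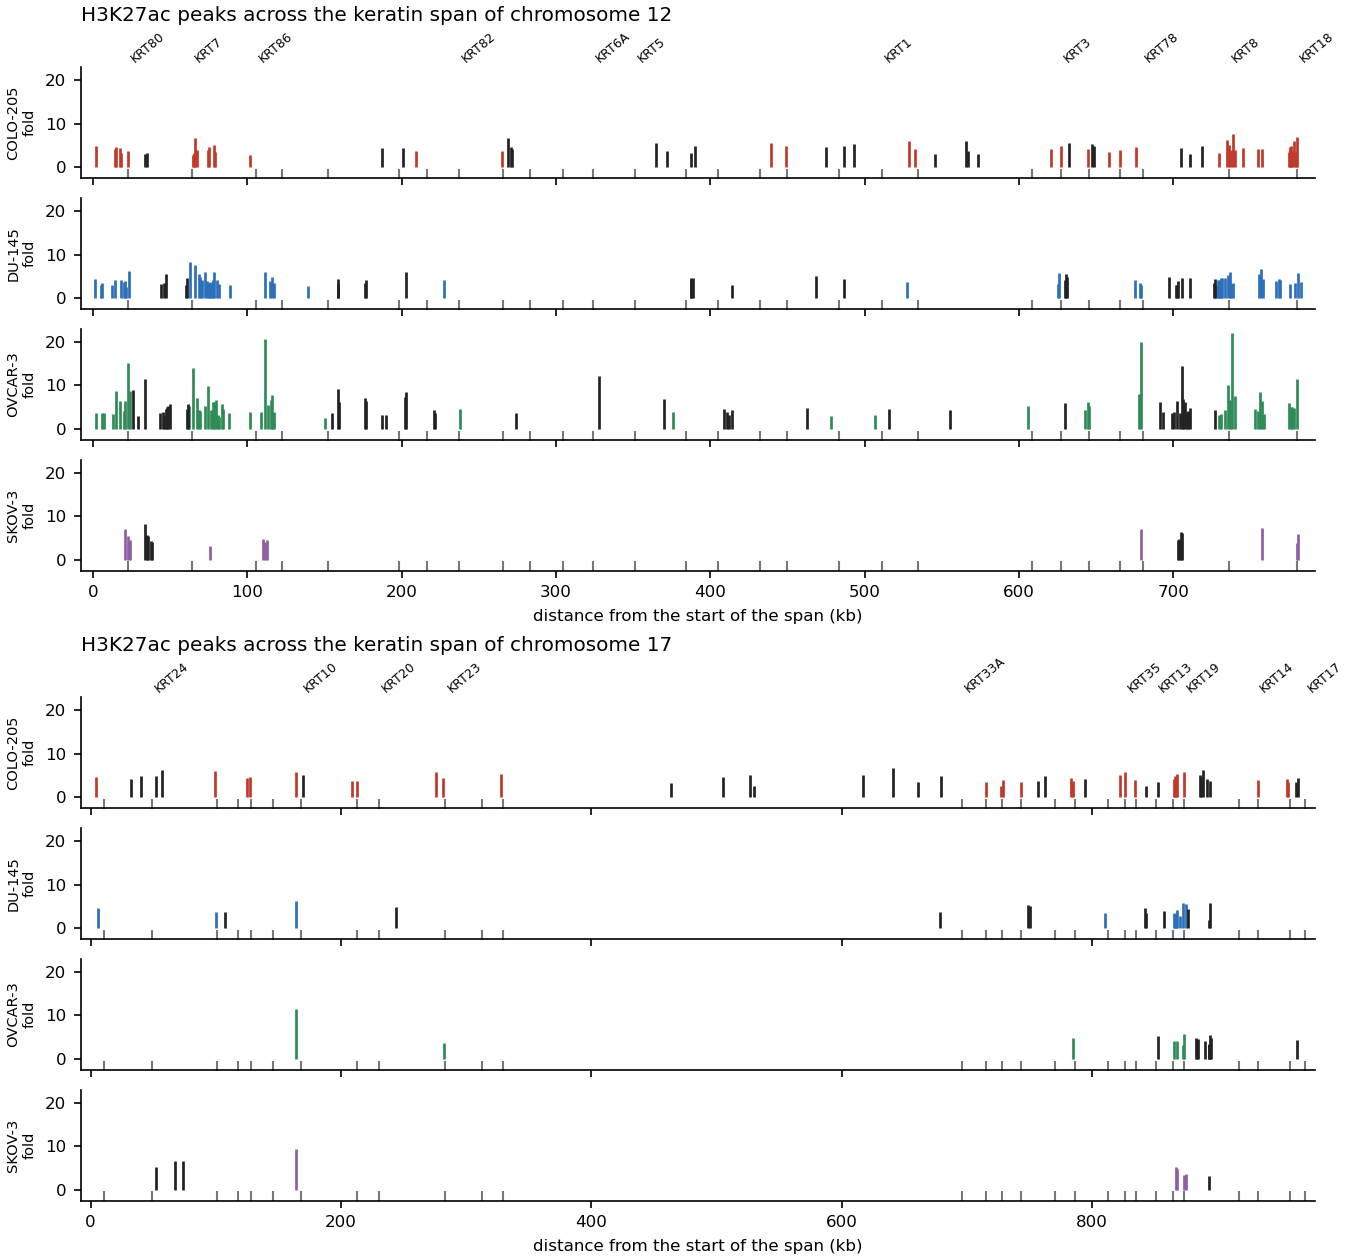
H3K27ac peaks along the keratin spans of chromosome 12 (upper 4 tracks) and chromosome 17 (lower 4 tracks), with the distance from the start of the span in kb and the deposited fold enrichment of each peak as its height. Coloured lines touch a keratin gene or its promoter, black lines lie between keratin genes, and grey ticks are canonical starts, some of them named above. Peaks crowd at both ends of the chromosome 12 span, and the tallest, with folds of 22 and 20.6, are in OVCAR-3.

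Within the chromosome 12 span the peaks were densest at the ends. These hold the simple keratins KRT7, KRT8 and KRT18, and also KRT80 and KRT78 of differentiated stratified epithelia. The division of the span was made after the data were seen. The 79.9 kb from KRT80 to KRT7, with 2 keratin genes, held 16 peaks in COLO-205, 9 in SKOV-3, 33 in OVCAR-3 and 28 in DU-145, and the 115 kb from KRT78 to KRT18, with 3, held 20, 8, 32 and 32. The 589 kb between them, with 22 keratin genes, held 31, 3, 43 and 25, which is 52.6, 5.09, 73.0 and 42.5 peaks per Mb. In the same order, the stretch from KRT80 to KRT7 had 200, 113, 413 and 350 peaks per Mb. That from KRT78 to KRT18 had 174, 69.5, 278 and 278. The longest stretch without a peak on chromosome 12 was 566085 bp in SKOV-3, which held 21 keratin genes from KRT81 to KRT79, and 92820, 159582 and 52934 bp in COLO-205, DU-145 and OVCAR-3, each with KRT6A, KRT6B and KRT6C inside. On chromosome 17 the longest such stretch was 702150 bp in SKOV-3, with 15 keratin genes inside, 502546 bp in OVCAR-3, 434416 bp in DU-145 and 135104 bp in COLO-205, the last with none.

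**Figure D5:**
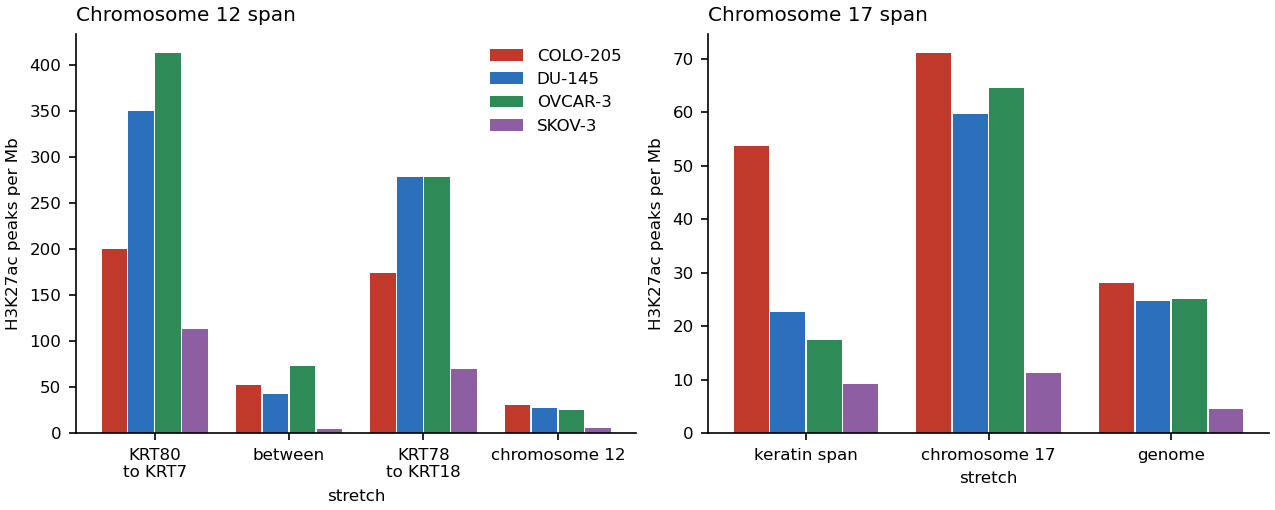
H3K27ac peaks per Mb in each line, for 3 stretches of the chromosome 12 span beside the whole chromosome (left) and for the chromosome 17 span beside its chromosome and the genome (right). On the left the stretches from KRT80 to KRT7 and from KRT78 to KRT18 stand above the stretch between them in every line, and on the right the span stands below its chromosome in every line, but above the genome in COLO-205 (53.6 beside 28.1 peaks per Mb) and SKOV-3 (9.28 beside 4.6).

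Peaks that touched no keratin gene body and no keratin promoter window numbered 47 in OVCAR-3, 9 in SKOV-3, 27 in DU-145 and 24 in COLO-205 on chromosome 12, and 10, 4, 11 and 25 in the same order on chromosome 17. On chromosome 12, 16 of the 27 such peaks of DU-145 (59.3%) overlapped a peak of OVCAR-3, and 15 of the 47 of OVCAR-3 (31.9%) one of DU-145, while 17 of the 24 of COLO-205 (70.8%) overlapped no peak of another line. Among peaks of the whole lists farther than 1 kb from any protein-coding start, these shares were 18.7%, 19.2% and 84.1%, and over all peaks 31.0%, 32.0% and 74.8%. Peaks covered 8.84% of the span in OVCAR-3 and 7.41% in DU-145, beside 1.16% and 1.4% of chromosome 12. The part of this density in the overlap was not tested. Only 1 peak of each line on chromosome 12 overlapped a peak of all the others. It lay in the gap between KRT78 and KRT8, about 25 kb from the KRT78 start, and touched no annotated gene. Its scaled pileup was 1.48 in COLO-205 (1.07 to 1.98), 1.64 in DU-145 (1.25 to 2.11), 4.85 in OVCAR-3 (4.14 to 5.65) and 1.96 in SKOV-3 (1.43 to 2.64), with folds of 4.42, 4.57, 14.5 and 6.4. OVCAR-3 was again highest, with chr12:53267368-53268849 as its peak, and the summits of the 4 lines lay within 25 bp of each other. A second shared site lay inside KRT10, the keratin of differentiated epidermis, far from its unmarked start. The 4 lines had a peak there with folds of 5.74 in COLO-205, 9.39 in SKOV-3, 11.4 in OVCAR-3 and 6.27 in DU-145, and summits within 59 bp. The OVCAR-3 peak spanned chr17:38974968-38975288, and the start of KRT10-AS1, a long non-coding RNA on the other strand, lay 225 bp from its summit. Beyond KRT19, a further site carried peaks of COLO-205, DU-145 and OVCAR-3, with a scaled pileup of 1.64, 2.0 and 1.96. SKOV-3 had no peak over that place, but less than 1 kb from it lay its peak chr17:39703893-39704218, with 1.88 (1.35 to 2.53), which overlapped further peaks of DU-145 (1.42) and OVCAR-3 (1.7). The sequences of the 3 sites are shown as 300 bases centred on the median summit, with capitals as before. They are examples chosen after their values were seen, and other sites shared by 3 lines, such as those at LINC00592 and within KRT86, are not shown. At the site beyond KRT19 the DU-145 summit lies outside the bases shown.
KRT78 to KRT8 gap (GRCh37 chr12:53267679-53267978, plus strand): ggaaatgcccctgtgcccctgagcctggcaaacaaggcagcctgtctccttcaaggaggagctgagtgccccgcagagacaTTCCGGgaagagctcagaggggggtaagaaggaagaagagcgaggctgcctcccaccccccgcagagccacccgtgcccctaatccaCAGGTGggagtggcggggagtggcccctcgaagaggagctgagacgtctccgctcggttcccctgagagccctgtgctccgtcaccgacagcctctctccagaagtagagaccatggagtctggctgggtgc
inside KRT10 (GRCh37 chr17:38974971-38975270, plus strand): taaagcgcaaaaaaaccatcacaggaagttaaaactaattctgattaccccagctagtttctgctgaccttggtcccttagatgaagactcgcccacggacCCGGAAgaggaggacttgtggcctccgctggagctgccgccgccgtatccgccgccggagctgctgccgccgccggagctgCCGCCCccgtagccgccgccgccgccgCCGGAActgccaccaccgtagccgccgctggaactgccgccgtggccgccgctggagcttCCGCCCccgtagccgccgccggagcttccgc
beyond KRT19 (GRCh37 chr17:39704918-39705217, plus strand): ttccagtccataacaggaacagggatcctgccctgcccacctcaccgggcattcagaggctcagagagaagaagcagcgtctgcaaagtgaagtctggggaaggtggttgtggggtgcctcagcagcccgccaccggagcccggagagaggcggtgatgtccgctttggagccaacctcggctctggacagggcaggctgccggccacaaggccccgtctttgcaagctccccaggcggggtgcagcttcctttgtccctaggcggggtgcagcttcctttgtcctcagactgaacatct

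The site between KRT78 and KRT8 held CCGGAA and CAGGTG, with 64% G and C, and the site beyond KRT19 held none of the 6 motifs in these letters. The site inside KRT10 held CCGGAA and GGGCGG and had a CpG ratio of 1.06. In windows of this length at all OVCAR-3 summits, 7.17% held CCGGAA, 41.5% CAGGTG, 25.3% GGGCGG, 20.3% CCAAT, 6.35% TGANTCA and 6.37% TATAAA.

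Further strong peaks lay away from keratin promoters. The strongest OVCAR-3 peak inside a keratin gene but outside the promoter windows was chr12:52672296-52675899, 3604 bp long, within the KRT86 gene and 4799 bp from its canonical start. It had a fold of 20.6, a −log10 q of 190 and a scaled pileup of 5.94 (5.15 to 6.81), against 2.0 (1.56 to 2.52) for the DU-145 peak there and 1.29 for that of SKOV-3. COLO-205 had none there. The start of the long non-coding RNA ENSG00000257830 lay 288 bp from the OVCAR-3 summit. About 10 kb upstream of KRT80, within the long non-coding RNA LINC00592, OVCAR-3 had a peak at chr12:52595737-52597893 with a fold of 11.5 and SKOV-3 one at chr12:52595793-52596961 with a fold of 8.35, and COLO-205 weak ones with folds of 2.98 and 3.34. In SKOV-3 this peak, with a −log10 q of 20.9, was the strongest of the peaks between keratin genes on chromosome 12. In COLO-205 that was chr12:52831356-52831732, 3350 bp from the KRT75 start, with a fold of 6.66, and in DU-145 chr12:53273405-53273867, with a fold of 4.65. On chromosome 17 the strongest were chr17:39699138-39699450 in COLO-205 (fold 6.16), chr17:39704772-39705753 in DU-145 (5.71), chr17:39704697-39705212 in OVCAR-3 (5.46), and chr17:38877952-38878222 in SKOV-3 (6.75), which lay 91 bp from the start of the keratin pseudogene KRT223P. The other peaks ranked second were chr17:39696570-39696975 in COLO-205 with a fold of 5.2, chr17:39653270-39653604 in DU-145 with 4.67, chr17:39705335-39705611 in OVCAR-3 with 4.77, and chr17:38884692-38884984 in SKOV-3 with 6.56.

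Genes that work with keratin filaments are set beside the shares over all genes given above. Desmosomes anchor keratin filaments at cell contacts, and 3 of their 15 listed genes were marked in SKOV-3, 10 in OVCAR-3, 10 in DU-145 and 8 in COLO-205, or 20.0%, 66.7%, 66.7% and 53.3%. With equal lists the counts were 3, 8, 4 and 6 in the same order. DSP, which binds the filaments, was marked in all 4 lines with a scaled pileup of 3.36 in OVCAR-3, 1.38 in SKOV-3, 1.39 in DU-145 and 1.98 in COLO-205, whereas JUP and PERP were unmarked in SKOV-3. Hemidesmosome genes, which anchor the filaments to the basement membrane, were all marked, 6 of 6, in DU-145 and OVCAR-3, and 5 were in COLO-205 and SKOV-3, where COL17A1 was unmarked. With equal lists 5 were marked in SKOV-3, 3 in OVCAR-3, 4 in DU-145 and 4 in COLO-205. Genes of the cornified envelope numbered 10, of which TGM3 was marked in COLO-205 and TGM1 and CDSN in OVCAR-3, and with equal lists 0 were marked in any line. Of 34 genes of keratin-associated proteins, the matrix of hair, 4 were marked in COLO-205 and none in the other lines, and with equal lists 0 were marked in COLO-205 too. Of 12 other cytoplasmic intermediate filament genes, 6 were marked in COLO-205 (DES, GFAP, PRPH, SYNM, BFSP1 and BFSP2), 6 in DU-145 and 3 in OVCAR-3, while SKOV-3 had VIM alone. With equal lists the counts were 2 in DU-145 and 1 in each of SKOV-3, OVCAR-3 and COLO-205. VIM had a scaled pileup of 2.53 in DU-145 and 2.63 in SKOV-3 and no promoter peak in the other lines. The 3 lamin genes were marked in every line.

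Of 13 listed transcription factors of epithelial genes, 3 were marked in SKOV-3, 10 in OVCAR-3, 7 in DU-145 and 10 in COLO-205, and with equal lists 3, 8, 6 and 5. The shares were 23.1% in SKOV-3, beside 31.7% of all genes, 76.9% in OVCAR-3, beside 60.6%, 53.8% in DU-145, beside 60.0%, and 76.9% in COLO-205, beside 51.3%. TP63, the regulator of stratified epithelium, was unmarked in every line, as was SNAI2. GRHL2, which maintains epithelial genes, had a scaled pileup of 3.26 in COLO-205 and 5.15 in OVCAR-3 and no peak in DU-145 or SKOV-3. KLF5 and TFAP2A were marked in all 4 lines, and so was ZEB1, a repressor of epithelial genes, with scaled pileups of 2.23 in SKOV-3, 1.05 in OVCAR-3, 1.24 in COLO-205 and 1.81 in DU-145. ELF3, an epithelial ETS factor, had 1.41, 2.78 and 4.53 in COLO-205, DU-145 and OVCAR-3, and no peak in SKOV-3.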

How the data were processed

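H3K27ac ChIP-seq was analysed in 4 cell lines with 1 library each. The authors mapped reads to hg19 with Bowtie2 2.1.0 and called peaks per library with MACS2 2.1.0.20150603 at a q-value below 0.001, per the labels and methods. The deposited columns are a score (10 times the −log10 q), the fold enrichment ratio against local background, the −log10 p and the −log10 q. Read counts are not among them. The methods describe joining peaks within 350 bp, which was not seen in these lists, so it was tried as an alternative.

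The pileup of a summit was solved for as the whole number of tags that gives the deposited fold and p together (tolerance 0.001 in −log10 p), and a solution was found for 99.917% or more of each list. The tag number was taken from the lowest background and 2700000000 genome positions. The recovery and the promoter calls were tested on simulated data. Genes came from GENCODE release 44 lifted to GRCh37, the build of the files, and sequence from GRCh37. Of the protein-coding genes, 279 have no canonical transcript and were left out of counts at canonical starts. LOR was measured under its current symbol LORICRIN. Some promoter sequences and 1 marker are not reported here.

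Keratin genes and lists were chosen with earlier results of these data known. All genes marked in at least 1 line were named, with the 2 peaks between genes of highest −log10 q per line and cluster. The strongest KRT86 peak, the KRT10 site and the COLO-205 peaks near KRT80 were named after their values were seen. Subgroups follow known sites of expression. No test was made, as there are no replicates. Alternatives were minimum −log10 q values of 5 and 10, equal peak numbers, windows of 500 bp and 2 kb, starts of protein-coding transcripts, summits inside the window, merging, peaks touching no annotated gene, fold and percentile in place of pileup and, added after the data were seen, canonical starts and bodies and OVCAR-3 peaks over the place of another line's peak. Figures were drawn with matplotlib 3.10.9, and all else was run in Python 3.11.15 with pandas 2.3.3, scipy 1.17.1 and numpy 2.4.6.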

Additional observations from a re-analysis of the deposited data

How the results depend on the processing

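No paired analysis was possible because each line has 1 library, and for the same reason no replicate could be left out. Of 100 settings for counts of promoters, peaks, pairs and partner genes, 74 stayed within 1.5 times the value in the report and 26 did not. With a −log10 q of at least 10, COLO-205 had 8 marked keratin promoters (14.5%, beside 31.7% of all genes) and 1 filament pair with both marked. Peaks between genes then numbered 2 in COLO-205, 4 in SKOV-3, 22 in OVCAR-3 and 8 in DU-145 on chromosome 12, and 1 in SKOV-3, 5 in DU-145 and 6 in COLO-205 on chromosome 17. With lists of equal length, the marked promoters were 6 in COLO-205, 6 in DU-145 and 5 in OVCAR-3, COLO-205 had 1 pair, the partner genes were 19 in COLO-205 and 19 in DU-145, and peaks between genes were 1, 2 and 5 on chromosome 12 and 2, 2 and 0 on chromosome 17 in COLO-205, DU-145 and OVCAR-3. Peaks touching no annotated gene numbered 4 in SKOV-3 on chromosome 12 and 15 in COLO-205 on chromosome 17, and merging left 5 in OVCAR-3 on chromosome 17. At canonical starts SKOV-3 had 3 marked promoters and 0 pairs with both marked. These settings count fewer peaks or starts by construction. With a window of 2 kb COLO-205 had 28 marked keratin genes (50.9%, beside 54.3% of all genes), 8 more than at 1 kb, KRT10, KRT13 and KRT16 among them.

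As percentiles within each list, the difference of OVCAR-3 minus DU-145 at KRT7 was -3.8 and that of OVCAR-3 minus COLO-205 at KRT18 was -11.3, both reversed from the pileup, and the cause was not tested. At KRT8, OVCAR-3 over DU-145 was 2.04 as log2 fold enrichment. When the OVCAR-3 peak over the place of the other line's peak was taken, a choice made after the data were seen, the log2 ratio of scaled pileups at KRT8 was 0.57 over DU-145 instead of 1.45, and 0.95 over COLO-205 instead of 1.83. The COLO-205 peak with its summit nearest that OVCAR-3 summit had 1.71 (1.27 to 2.25) beside 2.72 (2.19 to 3.33), and these intervals overlapped. No ratio could be given for SKOV-3 at KRT7 and KRT8, where it has no canonical peak. The peaks of the keratin genes marked in COLO-205 only, with 18 to 29 tags at the summit, were near the median of 24 tags over its list. A promoter without a peak is not shown to lack the mark, since each list holds only peaks past its threshold.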

Other observations

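OVCAR-3 had a peak at chr12:52889854-52890928, 3146 bp from the start of KRT6A and in no other line, with a fold of 12.2, a −log10 q of 36.3 and a pileup of 1.35 per 1000000 tags, although KRT6A itself had no promoter peak. It was chosen after its value was seen. In COLO-205, 4 genes of keratin-associated proteins had promoter peaks, with folds of 4.57 at KRTAP4-4, 3.43 at KRTAP17-1, 3.29 at KRTAP4-11 and 2.6 at KRTAP4-1.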
